A study of Mus musculus with 16 samples.

Results

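Gasdermin C and mucosal defense genes were followed along the crypt-villus axis of the mouse small intestine and compared between 2 genotypes. The set was 10 genes of the 24421 in the deposited matrices, chosen by name: the gasdermin C paralogs *Gsdmc2*, *Gsdmc3* and *Gsdmc4*, the luminal defense genes *Dmbt1* and *Lypd8*, the IgA transporter *Pigr*, the chemokine *Ccl25*, the defense-related gene *Plac8*, the inflammasome sensor *Nlrp6* and the cytokine *Il18*. The choice was made with earlier results of these data known. All 10 genes had a row, and all 10 were detected in both genotypes. Crypt-enriched cells came from untreated outbred mice at postnatal day 16. WT mice were wild-type. ROBO-Crainbow (ROBO) mice were heterozygous for *Villin-Cre* and for a transgene that expresses an inert fluorescent protein until Cre acts in the gut epithelium, after which a cell expresses human RSPO3 or one of a pair of PTPRK:RSPO3 fusions, each with its own fluorescent protein. Recombination is mosaic, the files do not say which construct a cell expressed, and the human transcript was not analysed here. The labels list 8 samples per genotype, but the cell names give only the genotype, so each genotype counts as 1 pooled sample and none of its differences could be tested.

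Gasdermins are cytosolic proteins whose cleaved N-terminal part opens pores in the plasma membrane, and gasdermin C genes are known in the gut for their response to type 2 cytokines. DMBT1 is a secreted scavenger-receptor protein that binds bacteria, LYPD8 is a membrane-anchored protein that keeps flagellated bacteria off the epithelium, and the polymeric immunoglobulin receptor encoded by *Pigr* carries IgA across the cell into the lumen. CCL25 recruits CCR9-bearing lymphocytes to the small intestine, NLRP6 is a sensor that assembles inflammasomes, and IL-18 is a cytokine that inflammasome caspases activate. New epithelial cells divide in the crypt, leave it as young enterocytes at the villus base and mature towards the villus tip.

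*Gsdmc2*, *Gsdmc3* and *Gsdmc4* are neighbours on the minus strand of mouse chromosome 15 (GRCm38, GENCODE M21), at chr15:63824346-63845177, chr15:63857724-63878558 and chr15:63891264-63912297. Together with *Gsdmc*, which had 10 UMIs in all, they span 136 kb that also holds the pseudogenes *Gsdmcl1* and *Gsdmcl2*, both without a UMI. The coding sequences of *Gsdmc2* and *Gsdmc3* were 97.1% identical, and each was 93.0% identical to that of *Gsdmc4*. The last 90 coding bases are shown because they show how little separates the coding ends of the 3 genes. These bases end at the stop codon, and its distance from the transcript end that the kit reads is not given here. Capitals mark the 5 positions at which the 3 genes differ.
Gsdmc2: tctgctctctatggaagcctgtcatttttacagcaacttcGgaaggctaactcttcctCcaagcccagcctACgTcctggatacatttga
Gsdmc3: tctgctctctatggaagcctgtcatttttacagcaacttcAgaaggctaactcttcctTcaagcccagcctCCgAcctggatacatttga
Gsdmc4: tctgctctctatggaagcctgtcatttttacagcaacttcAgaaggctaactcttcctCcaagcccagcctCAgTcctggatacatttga

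Between *Gsdmc2* and *Gsdmc3* there were 4 differences in these 90 bases, and between *Gsdmc4* and each of the other 2 genes there were 3. In the last 500 bases of the transcript, 23.7% of all 75-base windows of *Gsdmc2* and 25.1% of those of *Gsdmc3* occurred word for word in a paralog, against 0% for *Gsdmc4*. The split of reads between *Gsdmc2* and *Gsdmc3* is therefore uncertain, and the sum of the 3 genes is given beside their single values. *Gsdmc4* took 426 of the 662 UMIs of the sum.

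RefSeq promoter windows (250 bases before to 50 after the start, GRCm38.p6) were at hand for 7 of the 10 genes. The windows of *Gsdmc3* (chr15:63878509-63878808, minus strand) and *Il18* (chr9:50554450-50554749, plus strand) are shown. They were chosen because the gasdermin C sum and *Il18* peaked at different positions of the axis, as described in the following paragraphs. With 76 UMIs in all, the peak of *Gsdmc3* alone was not resolved. Capitals mark matches to 6 short motifs searched on both strands. They were the HNF4 motif AAAGTCCA, the CDX motif TTTATNG, the STAT3-type motif (TTC and GAA with 3 bases between), the STAT6-type motif (the same with 1 base more between), the GATA motif AGATAA and the TATA motif TATAAA.
Gsdmc3: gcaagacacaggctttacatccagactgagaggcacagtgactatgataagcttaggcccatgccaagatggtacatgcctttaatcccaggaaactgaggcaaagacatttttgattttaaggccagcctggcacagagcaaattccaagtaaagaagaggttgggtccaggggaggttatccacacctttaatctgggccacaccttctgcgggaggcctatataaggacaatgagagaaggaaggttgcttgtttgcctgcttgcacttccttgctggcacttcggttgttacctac
Il18: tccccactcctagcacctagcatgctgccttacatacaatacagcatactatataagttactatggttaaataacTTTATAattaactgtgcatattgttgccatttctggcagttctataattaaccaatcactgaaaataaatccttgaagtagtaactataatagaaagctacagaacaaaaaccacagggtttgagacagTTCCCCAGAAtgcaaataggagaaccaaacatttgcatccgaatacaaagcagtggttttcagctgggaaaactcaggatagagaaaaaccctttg

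The *Il18* window held the STAT6-type motif beginning 46 bases before the start, and the TATA motif on the other strand beginning 175 bases before it. The *Gsdmc3* window held no exact match. Only the exact letters were searched, so close variants, such as TATATAAG in the *Gsdmc3* window, were not counted. The search therefore does not show that such elements are absent. Across 32851 promoter windows, 6.95% held the STAT6-type motif, 13.6% the TATA, 11.2% the GATA, 10.9% the CDX, 8.30% the STAT3-type and 1.248% the HNF4 motif. Among the other members, *Pigr* held the STAT3-type motif 40 bases after the start, and windows of second starts held the STAT6-type motif for *Plac8* and the GATA motif for *Lypd8*. The TATA and CDX motifs can overlap, as they did in a *Ccl25* window.

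The WT matrix held 1348 cells and 2682127 unique molecular identifiers (UMIs, each a captured molecule), and the ROBO matrix 1249 cells and 2428435 UMIs. No 2 cells had the same counts, and the cell names hold no barcodes to compare between libraries. Clustering without the 10 genes gave 13 clusters, which were named from marker lists with the ending -like and the leading gene. The Sfrp5-led cluster (392 cells) had all 27 markers of dividing, transiently amplifying cells raised, and is called the dividing cluster here. It also had 9 of 20 stem cell markers raised, its leading gene *Sfrp5* among them, so dividing stem cells are not excluded from it. The Reg1-led cluster (162 cells, of which 80 were WT) had 5 of 14 bottom enterocyte markers raised, 1 of them among its 10 leading genes. It also had 5 of 20 middle enterocyte markers raised, so that its name rests on few markers. The listed bottom enterocyte markers *Reg3b* and *Reg3g* were not raised in it, at 1.69 and 1.22 UMIs per 10000. Over all cells they were at 7.56 and 1.69 in WT, and at 5.80 and 1.66 in ROBO. Both were highest in the Myl7-led cluster described below, at 21.2 and 5.48. The Sis-led (128 cells) and Cubn-led (283 cells) clusters had 18 and 17 of 20 middle enterocyte markers raised, and the Gpx3-led cluster (232 cells) 11 of 14 top enterocyte markers beside 12 of the 20 middle ones. Stem cell-like cells formed a Clu-led cluster (206 cells, 13 of 20 markers) and a shallow Zfp692-led cluster (348 cells, 5 of 20 markers, median 854 UMIs per cell). A second, shallow transiently amplifying-like cluster was Rn45s-led (355 cells, 8 of 27 markers, beside 5 of 20 stem cell markers). A second bottom enterocyte-like cluster was Myl7-led (119 cells, 3 of 14 markers, beside 2 of 20 stem cell markers). Both names rest on few markers. A Fosb-led cluster of 166 cells, led by the immediate-early and stress genes *Fosb* and *Atf3*, stayed unnamed. It had 10 of 20 middle enterocyte markers raised, but 0 of them among its 10 leading genes. The rest were secretory-like (Zg16-led, 131 cells), immune-like (Gzma-led, 45 cells) and enteroendocrine-like (Chgb-led, 30 cells). No cluster was named tuft-like or fibroblast-like. As a second view, the 2391 cells outside the secretory-like, enteroendocrine-like and immune-like clusters were ranked by their UMIs of 30 villus genes over 30 crypt genes and split into 10 bins, bin 1 being the most crypt-like. Levels are UMIs per 10000 UMIs of all genes, with 95% intervals. These cover counting error alone, not how mice or libraries vary. Differences between clusters are given as descriptions, without a test.

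The gasdermin C genes were read in 2 clusters above all, the Reg1-led cluster and the dividing cluster. Summed over the 3 genes, the level was 4.71 (4.11 to 5.38) in the Reg1-led cluster and 2.53 (2.26 to 2.82) in the dividing cluster. Against all other cells the Reg1-led cluster was higher by 2.31 (2.07 to 2.54) on the log2 scale. The Reg1-led and dividing clusters gave 33.2% and 48.8% of all UMIs of the 3 genes. In WT the Reg1-led cluster stood at 4.68 and in ROBO at 4.75, and the dividing cluster at 2.30 and 2.82. Both clusters were above every other cluster in both genotypes. The unnamed Fosb-led cluster came next at 1.21 (0.819 to 1.73), and every other cluster stayed at or below 0.564 over both genotypes.

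*Gsdmc4* followed this order on its own, at 2.98 in WT and 3.50 in ROBO for the Reg1-led cluster and at 1.53 and 1.67 for the dividing cluster. The Reg1-led level exceeded that of the dividing cluster by 1.02 on the log2 scale (0.71 to 1.34). *Gsdmc2* was at 1.28 in WT and 0.798 in ROBO in the Reg1-led cluster, and at 0.524 and 0.754 in the dividing cluster. *Gsdmc3* was at 0.414 and 0.444 in the Reg1-led cluster and at 0.241 and 0.403 in the dividing cluster. For *Gsdmc3* the interval of the log2 ratio between these clusters, -0.40 to 1.26, included 0, so that their order was not resolved. The same held for *Gsdmc2* in ROBO alone, where this log2 interval was -0.80 to 0.91.

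In the Cubn-led middle and Gpx3-led top enterocyte-like clusters the 3 genes were almost unread. The Cubn-led cluster held 1 UMI of the 3 genes among 546564 UMIs, and the Gpx3-led cluster 1 among 320810. *Gsdmc4* had no UMI in the Cubn-led cluster, which allows a level of up to 0.0549 if 3 UMIs are taken as the limit for a count of 0 (0.0675 by the exact Poisson interval). The Sis-led cluster, the other middle enterocyte-like one, was at 0.558 (0.325 to 0.893). After each cell was thinned to 912 UMIs, 33.8% (26.4% to 41.7%) of Reg1-led cells and 16.7% (13.1% to 20.7%) of dividing cells had at least 1 *Gsdmc2*, *Gsdmc3* or *Gsdmc4* UMI, against 50.6% and 31.1% before thinning. Among immune-like cells, which should lack these genes, it was 0 of 36 after thinning, which allows a share of up to 8.33% by the same limit of 3 (9.74% by the exact binomial interval), and 4.44% before. Median depth was 2733.5 UMIs in Reg1-led, 3067.5 in dividing and 1750 in immune-like cells.

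Along the ranking the summed level was 0.692 in bin 1, reached 2.48 (2.05 to 2.98) in bin 6 and dropped to 0.084 (0.0229 to 0.215) in bin 10. Bins 3 to 7 all lay between 1.82 and 2.48. The fall came late and sharply, from 2.21 in bin 7 to 0.236 in bin 9. Both genotypes had this shape. In WT the bins ran from 0.793 in bin 1 through 2.17 in bin 6 to 0.135 in bin 10, and in ROBO from 0.574 through 2.97 to 0.0393. Few cells carried much of the middle bins. In bin 6, 26 of 60 WT UMIs and 32 of 54 ROBO UMIs lay in 5 cells each. Among bins 3 to 7 the most concentrated were WT bin 3, with 42 of 57 UMIs in 5 cells, and ROBO bin 5, with 32 of 43. The Poisson intervals do not cover this spread between cells. The genotypes stood apart in bin 8, with 1.98 (1.45 to 2.64) in WT and 0.258 (0.0837 to 0.601) in ROBO. That bin was singled out after its values were seen. In WT 35 of its 46 UMIs lay in 5 cells, and in ROBO 5 UMIs lay in 4 cells.

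The plot of the gasdermin C genes beside *Gsdmd* shows different patterns along the ranking. *Gsdmd*, the gasdermin that caspases of the canonical and non-canonical inflammasomes cleave, was at 0.443 (0.287 to 0.654) in bin 1 and at 7.37 (6.62 to 8.18) in bin 10. Its highest cluster was the Gpx3-led one, at 8.98 (7.97 to 10.1), and in the Reg1-led cluster it was at 0.771 (0.540 to 1.07). *Gsdmd* was the only one of 7 other gasdermin genes listed with at least 50 UMIs, with 650 in WT and 652 in ROBO.

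**Figure D1:**
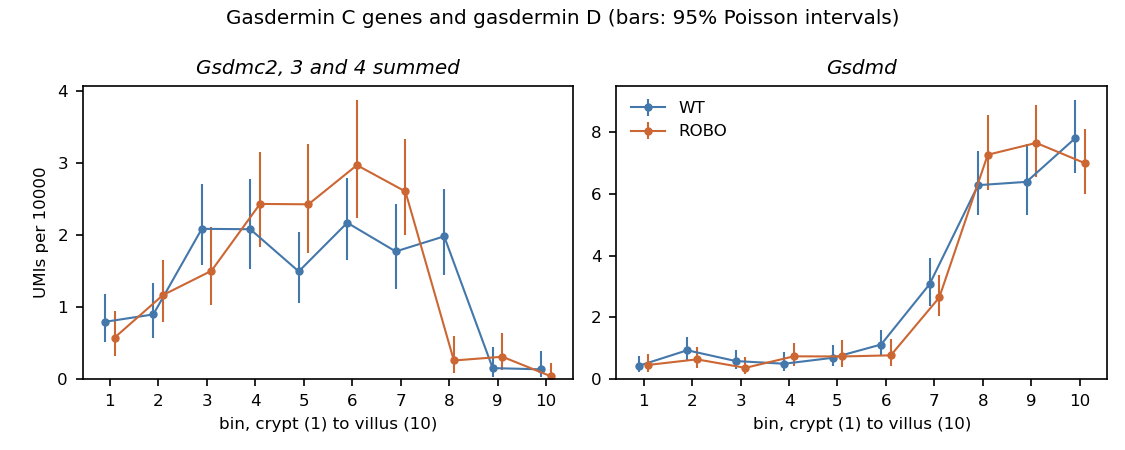
UMIs per 10000 of *Gsdmc2*, *Gsdmc3* and *Gsdmc4* summed (left) and of *Gsdmd* (right) in 10 bins of cells from crypt-like to villus-like, for WT (blue) and ROBO (orange), with 95% Poisson intervals as bars. The gasdermin C sum is highest in the middle bins and near 0 in bins 9 and 10, where *Gsdmd* is at its highest.

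*Dmbt1* had the same 2 main sites as the gasdermin C genes. It was at 57.0 (54.1 to 60.1) in WT and 62.8 (59.5 to 66.1) in ROBO in the Reg1-led cluster, and at 38.7 (37.2 to 40.2) and 47.0 (45.3 to 48.8) in the dividing cluster. In the Cubn-led and Gpx3-led clusters it was at 0.860 and 0.499 over both genotypes. The Reg1-led level was therefore the highest of the 13 and the Gpx3-led level the lowest. The order below the dividing cluster was the unnamed Fosb-led cluster at 19.1, the Rn45s-led at 16.1, the Zfp692-led at 13.3 and the secretory-like cluster at 10.9. Other clusters were below 8.

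The immune-like cluster had a *Dmbt1* level of 6.01, but 37 of its 54 UMIs came from 1 WT cell, and without that cell it was at 2.04. That value, 9.42% of the level in all other cells, is taken as background, since immune cells should lack the gene. The levels in the Cubn-led and Gpx3-led clusters were below it. Along the ranking *Dmbt1* was at 16.9 in bin 1, reached 45.0 (43.0 to 47.0) in bin 5 and 44.4 in bin 6, and dropped to 7.85 in bin 8 and 1.51 (1.18 to 1.90) in bin 10. The peak lay in bin 5 in both genotypes, at 44.1 in WT and 46.3 in ROBO.

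*Lypd8* was broader. Its highest level was in the Reg1-led cluster, where WT stood at 49.1 (46.3 to 51.9) and ROBO at 53.3 (50.3 to 56.4). The Sis-led cluster followed at 31.7 and 36.9, then the secretory-like cluster at 29.5 and 31.6 and the Myl7-led cluster at 26.9 and 29.6. The step from the secretory-like to the Myl7-led cluster, 0.12 on the log2 scale (-0.02 to 0.25), was not resolved. All stem cell-like and transiently amplifying-like clusters lay between 16.4 and 21.8 over both genotypes, and the Gpx3-led cluster was at 2.99. Along the ranking *Lypd8* peaked in bin 7 in both genotypes, at 35.5 in WT and 41.1 in ROBO. Bin 1 stood at 13.2 and bin 10 at 10.7 over both.

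*Pigr* was nearly level on the crypt side of the ranking. It was highest in the Reg1-led cluster, at 26.4 (24.4 to 28.5) in WT and 23.3 (21.3 to 25.4) in ROBO, with the dividing cluster next at 18.2 and 17.5. The stem cell-like clusters were both at 14.3 over both genotypes. Over both genotypes, from bin 1 to bin 7 the level stayed between 14.4 and 19.0, with the highest value in bin 5, and then dropped to 5.48 (4.83 to 6.19) in bin 10. The Gpx3-led cluster was at 1.99 (1.54 to 2.55) and the immune-like cluster without its largest cell at 1.44.

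*Ccl25* was shared by the Sis-led and Reg1-led clusters. The Sis-led level was 17.1 in WT and 16.9 in ROBO, and the Reg1-led level 16.5 and 15.03. The difference between these clusters, 0.11 on the log2 scale (-0.06 to 0.27), was not resolved. The step down to the Myl7-led cluster, at 6.57, was 1.27 (1.05 to 1.48). The stem cell-like, transiently amplifying-like and Cubn-led clusters lay between 4.54 and 6.10, and the secretory-like cluster was at 2.24. Along the ranking *Ccl25* went from 4.58 in bin 1 to 11.6 (10.7 to 12.7) in bin 7 and back to 5.00 in bin 10. With cells ranked by the share of villus-gene UMIs alone, bin 10 was at 1.35. The Gpx3-led cluster was at 1.09 (0.760 to 1.52), the lowest of the 13 over both genotypes.

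*Plac8*, a small cysteine-rich protein gene expressed in epithelial and immune cells, peaked farther up the axis. In the Sis-led cluster WT stood at 64.5 (60.5 to 68.8) and ROBO at 77.1 (72.8 to 81.5). The Cubn-led cluster followed at 54.4 and 58.7 and the Reg1-led cluster at 52.6 and 57.6, and the order of the latter 2 was not resolved (0.04 on the log2 scale, -0.04 to 0.12). The dividing cluster was at 16.9 and the Clu-led cluster at 17.9 over both genotypes. From bin 1 to bin 8 the level went from 13.2 to 65.7 (63.3 to 68.2), and bin 10 was still at 34.7. The immune-like cluster was at 13.02, or 41.3% of the level in all other cells, with no more than 15 UMIs from 1 cell.

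*Nlrp6* varied over a narrow range along the main ranking, but less so with cells ranked by the share of villus-gene UMIs alone. In that second ranking it was at 2.91 in bin 1, highest in bin 8 at 3.82 (3.26 to 4.44), and at 0.804 in bin 10. In the main ranking *Nlrp6* was, over both genotypes, at 3.00 (2.56 to 3.48) in bin 1. It was between 1.82 and 2.96 in bins 2 to 9 and at 1.64 (1.29 to 2.04) in bin 10. Its highest cluster was the Sis-led one in WT, at 4.94, and the Reg1-led one in ROBO, at 3.77. Over both genotypes these clusters stood at 4.20 and 3.34, a log2 ratio of 0.33 (-0.02 to 0.68) that left their order unresolved. The Clu-led stem cell-like cluster was at 2.57, the dividing cluster at 2.42 and the Gpx3-led cluster at 0.623 (0.381 to 0.963).

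*Il18* was the only one of the 10 genes with its highest level in the Cubn-led cluster. It was at 1.23 (0.846 to 1.73) in WT and 1.73 (1.27 to 2.29) in ROBO there, and at 0.156 and 0.105 in the dividing cluster. Its lowest levels among the absorptive clusters were thus in the dividing and the Clu-led cells, the latter at 0.151. Along the ranking *Il18* was between 0.131 and 0.251 in bins 1 to 5, at 1.15 (0.850 to 1.52) in bin 8 and at 0.924 (0.671 to 1.24) in bin 10. In WT the highest bin was bin 8, at 1.247, and in ROBO it was bin 10, at 1.30. With 235 UMIs in all, the intervals of neighbouring bins overlapped throughout.

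**Figure D2:**
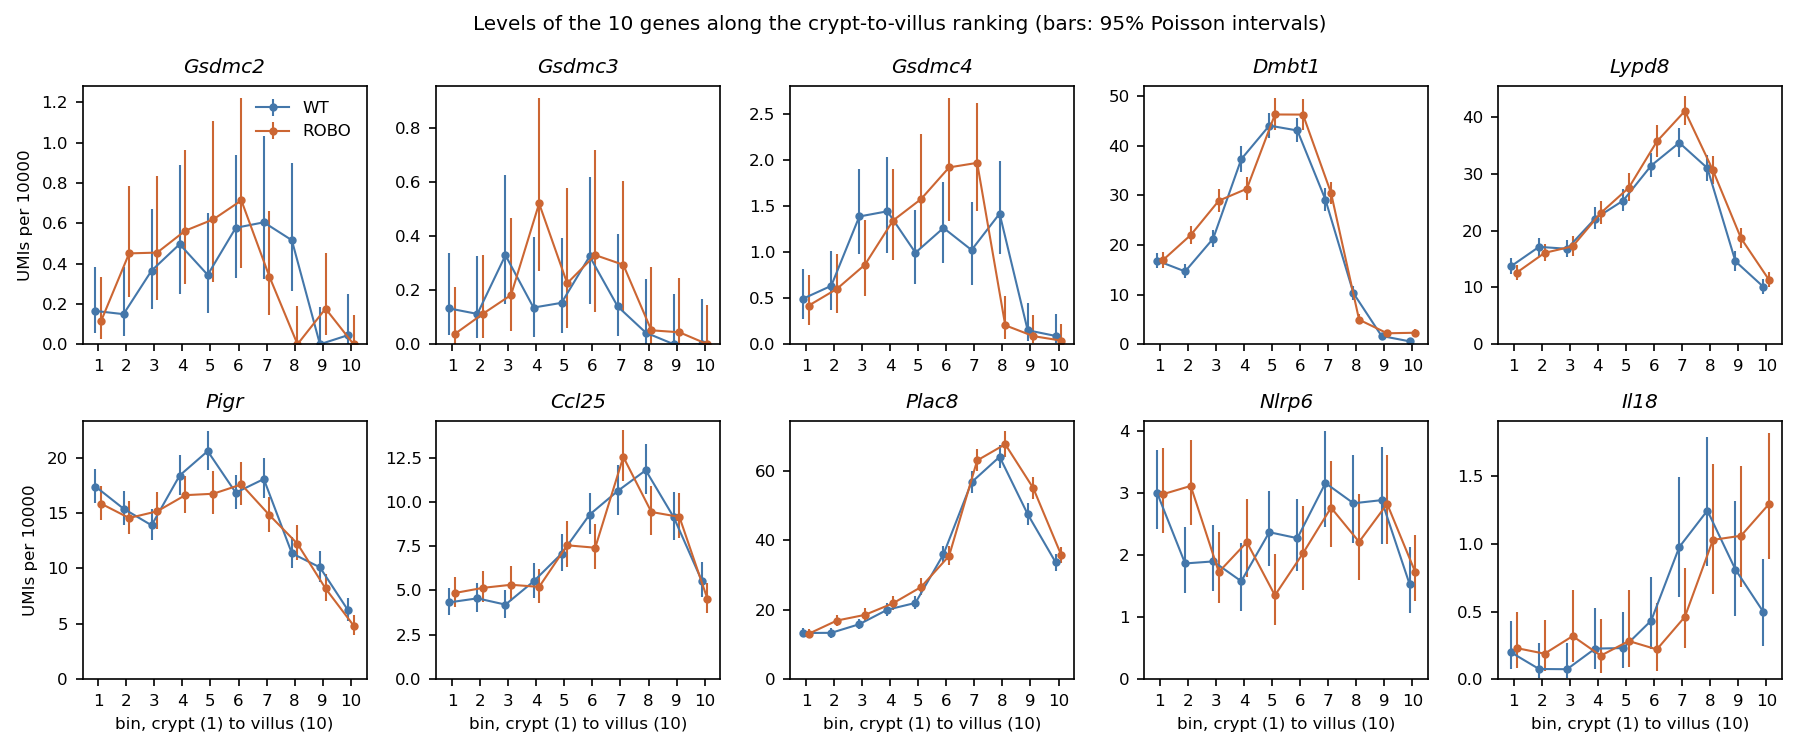
UMIs per 10000 of each of the 10 genes (panels) in 10 bins of cells ordered from crypt-like (1) to villus-like (10), for WT (blue) and ROBO (orange), with 95% Poisson intervals. *Dmbt1* peaks in bin 5, *Lypd8* in bin 7, *Plac8* in bin 8, and *Il18* is highest in bins 8 to 10.

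Read by cluster, 6 of the 10 genes (*Gsdmc2*, *Gsdmc3*, *Gsdmc4*, *Dmbt1*, *Lypd8* and *Pigr*) had their highest level in the Reg1-led cluster in both genotypes, although for *Gsdmc3*, and for *Gsdmc2* in ROBO, the step down to the dividing cluster was not resolved. *Ccl25* and *Plac8* were highest in the Sis-led cluster in both, *Il18* in the Cubn-led cluster in both, and *Nlrp6* in a different cluster in each genotype. None was highest in the Gpx3-led, top enterocyte-like cluster. The share of all genes that peaked in each cluster is not given here, so these counts are not read as particular to the 10 genes. *Gsdmc4* itself was among the 10 leading genes of the Reg1-led cluster, although it had not been used for clustering. Of the Reg1-led cells, 48 lay in bin 6 and 76 in bin 7.

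**Figure D3:**
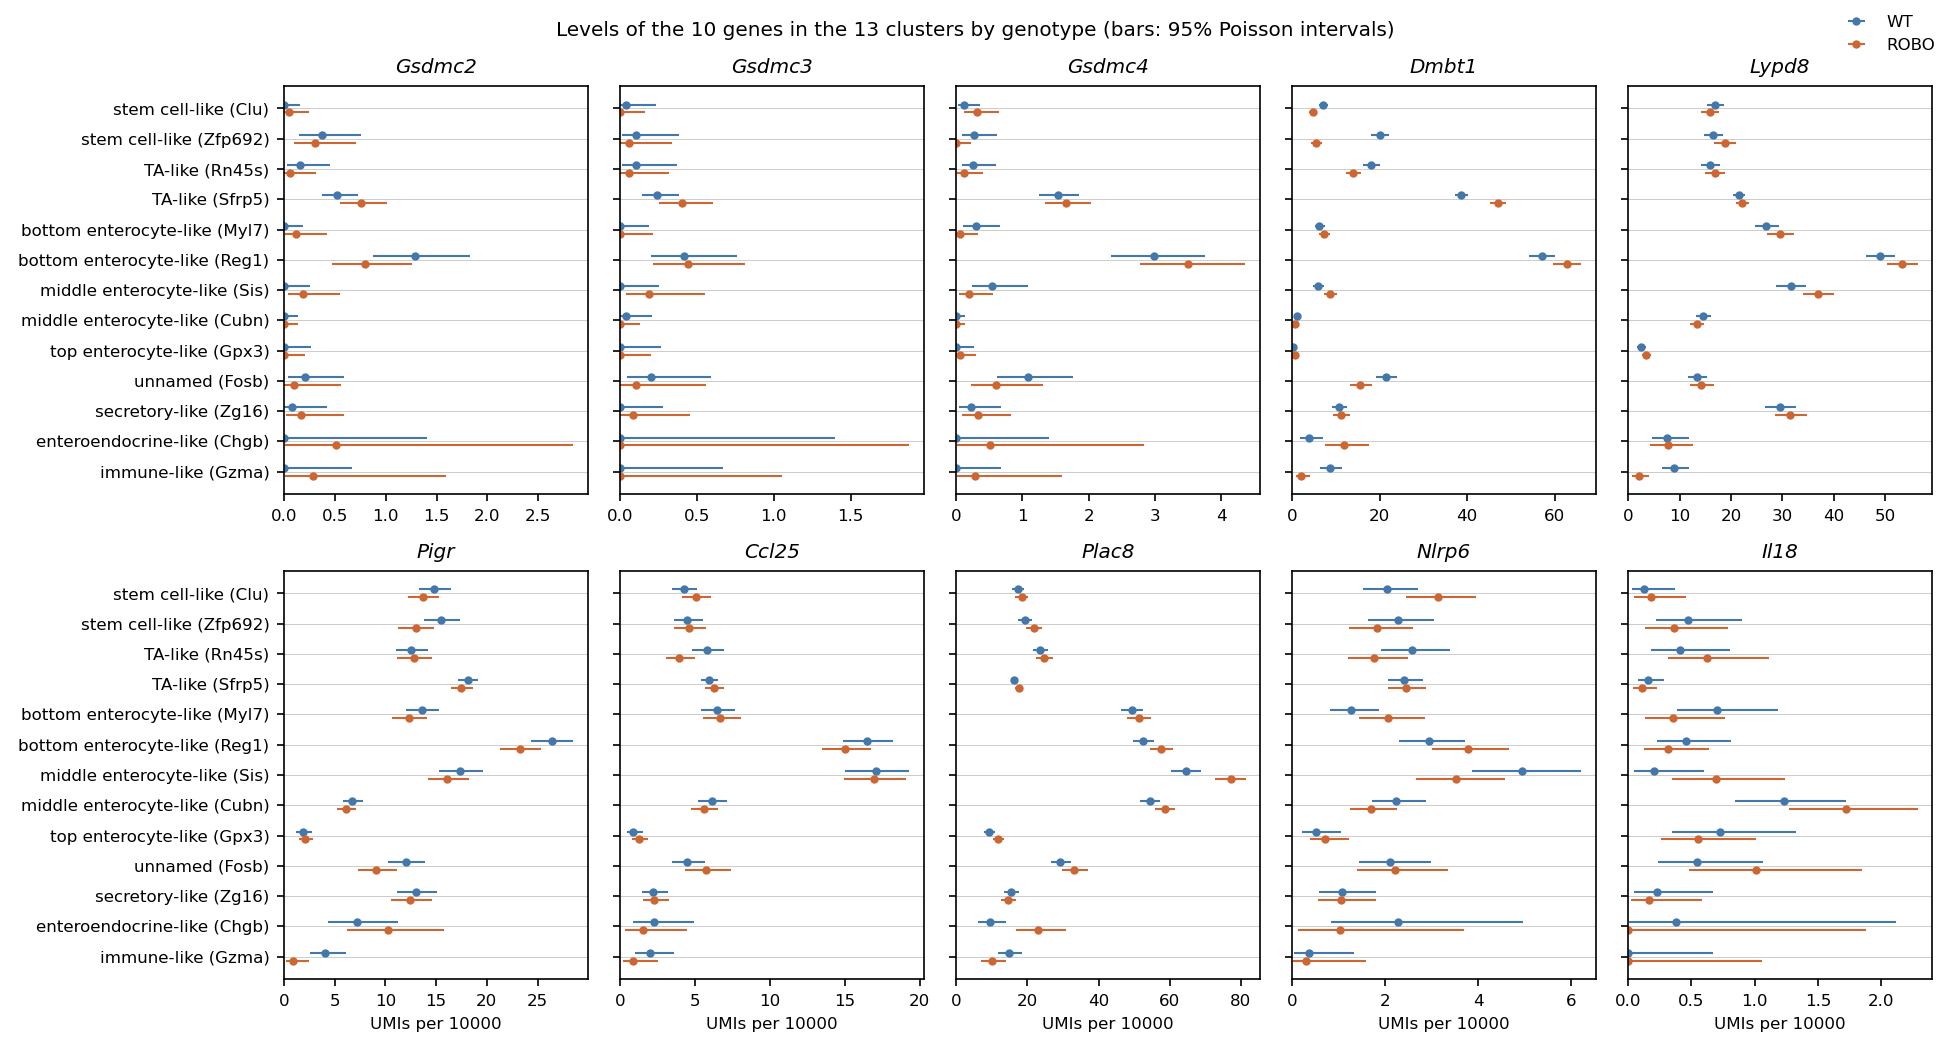
UMIs per 10000 of each of the 10 genes (panels) in the 13 clusters (rows, named by class and leading gene), for WT (blue) and ROBO (orange), with 95% Poisson intervals. The Reg1-led row holds the highest point for *Gsdmc4*, *Dmbt1*, *Lypd8* and *Pigr* in both genotypes.

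The dividing cluster carried *Dmbt1* and gasdermin C transcripts at higher levels than the other cells at the same place in the ranking. Cells of the dividing cluster, called dividing cells here, were compared with all other cells of the same bin. These others included the shallow Rn45s-led transiently amplifying-like cells, 50 of them in bin 1 and 54 in bin 5. The comparison is thus not one of dividing with non-dividing cells. *Dmbt1* was higher in dividing cells in each of bins 1 to 5, at 23.1 against 8.97 in bin 1, 43.3 against 8.22 in bin 3 and 77.4 against 23.6 in bin 5. The log2 ratio was 1.37 (1.15 to 1.59) in bin 1, 2.40 (2.18 to 2.62) in bin 3 and 1.72 (1.58 to 1.85) in bin 5. In bin 6, where the Reg1-led cells set in, it was 0.06 (-0.09 to 0.21). Both genotypes gave ratios above 0 in all of bins 1 to 5, from 0.88 to 2.62 in WT and from 2.16 to 2.65 in ROBO.

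The gasdermin C sum behaved alike in bins 2 to 5. It was at 1.92 in dividing cells against 0.247 in the others in bin 2, and at 4.92 against 0.609 in bin 4. The log2 ratio in bin 4 was 3.01 (2.25 to 3.86). In bin 1 the ratio was 1.19 (0.12 to 2.40) over both genotypes, but 0.12 (-1.53 to 1.90) in ROBO alone. In bin 6 it was -0.26 (-0.997 to 0.43) over both and -1.39 (-2.68 to -0.31) in WT alone, and ROBO had too few dividing cells there for a value. *Lypd8* differed less, by 0.04 in bin 1 and 0.56 (0.38 to 0.74) in bin 4. *Plac8* was lower in dividing cells, with log2 ratios over both genotypes from -0.20 to -0.51 in bins 1 to 6. The interval in bin 2 included 0 (-0.40 to 0.01), and in ROBO alone bin 1 was at 0.05 (-0.27 to 0.37).

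Within the dividing cluster itself, *Dmbt1* and *Lypd8* levels over both genotypes went up with the villus score. In its 131 lowest, 131 middle and 130 highest cells by score, *Dmbt1* was at 25.3, 43.3 and 60.6, and *Lypd8* at 15.1, 18.9 and 32.3. The gasdermin C sum was at 1.17, 3.42 and 3.15. For *Dmbt1* the cells were ordered in the same way in WT (21.4, 37.4 and 55.9) and in ROBO (29.1, 51.1 and 67.8). The gasdermin C sum had no such order in WT, at 1.24, 3.73 and 1.89, while in ROBO it was at 1.09, 3.02 and 5.05. Median depth went down over these groups, from 3556 through 2988 to 2801 UMIs. Depth also moved with the clusters. Dividing cells had a median of 3067.5 UMIs per cell and the Rn45s-led and Zfp692-led clusters 909 and 854, and its part in the ratios was not tested. The Myl7-led cluster, at a median of 3016 UMIs, had a *Dmbt1* level of 6.70 and a gasdermin C sum of 0.244, and the Clu-led cluster, at 2162, had 5.93 and 0.259.

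**Figure D4:**
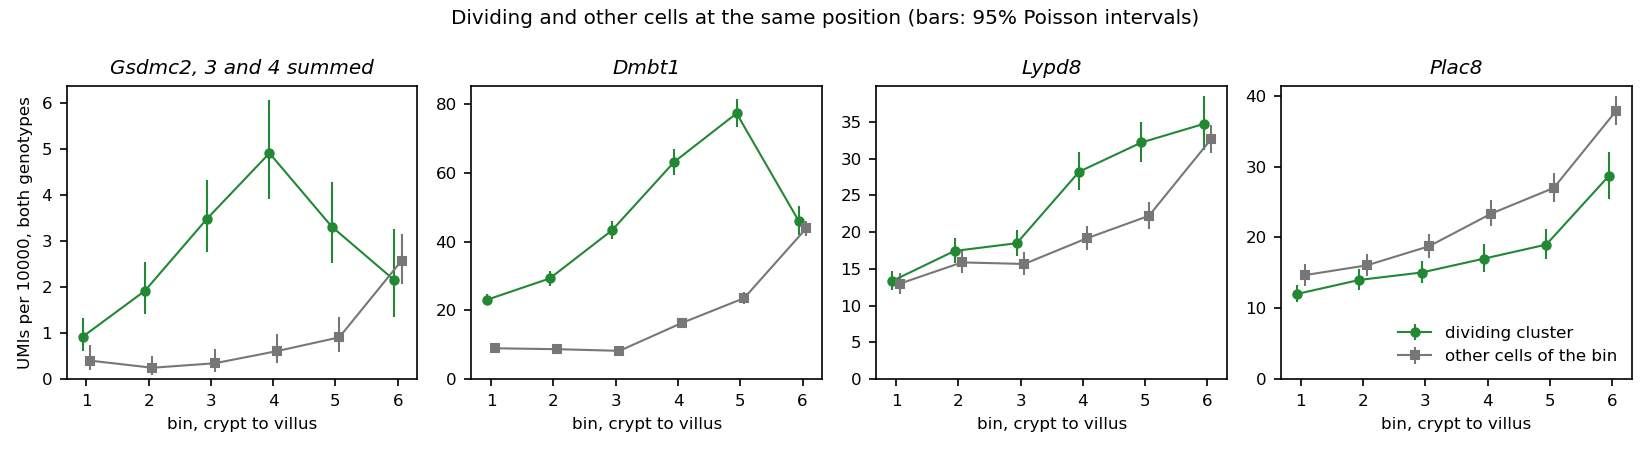
UMIs per 10000, both genotypes together, in cells of the dividing cluster (green) and all other cells of the same bin (grey) for bins 1 to 6, with 95% Poisson intervals. The other cells include the Rn45s-led, transiently amplifying-like cluster. *Dmbt1* and the gasdermin C sum are higher in the dividing cluster in bins 1 to 5 and meet the other cells in bin 6. *Plac8* is lower in the dividing cluster in all 6 bins.

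*Dmbt1* and gasdermin C transcripts were often found in the same cells. Among thinned absorptive cells, 84.9% (78.2% to 90.2%) of the 152 cells with a *Gsdmc2*, *Gsdmc3* or *Gsdmc4* UMI had a *Dmbt1* UMI, against 35.9% (33.6% to 38.3%) of the 1644 cells without. In WT it was 87.7% against 37.7% and in ROBO 82.8% against 34.1%. Within the dividing cluster the shares were 92.3% and 71.7%. Within the Reg1-led cluster they were 86.8% and 87.5%, a difference far inside their intervals. *Il18* did not differ detectably, at 2.63% of cells with and 4.08% of cells without a gasdermin C UMI. Of all thinned absorptive cells with a *Gsdmc4* UMI, 10.9% (5.56% to 18.7%) had a *Gsdmc2* UMI, against 2.06% (1.44% to 2.86%) of cells without. Within the dividing cluster the shares were 7.14% and 5.17%, with 11.8% and 3.26% in WT but 4% and 7.32% in ROBO. Within the Reg1-led cluster they were 17.5% and 6.84%. The intervals overlapped within each of these clusters, so the difference for *Gsdmc2* was not resolved inside them. As a background value, 22.2% (10.1% to 39.2%) of the 36 thinned immune-like cells had a *Dmbt1* UMI.

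Across the 13 clusters, the genes most like each member were found among 7458 genes by Pearson's r of log2 levels, as a description over 13 points that share libraries and depth. For *Gsdmc2* the nearest was *Dmbt1* (0.86), for *Gsdmc3* *Slc1a1* (0.97) and for *Gsdmc4* *Cpped1* (0.92). *Gsdmc4* had rank 3 for both of its paralogs, and *Lrig3* was second for *Gsdmc3* and *Gsdmc4*. *Fgfbp1* was nearest to *Dmbt1* (0.94), followed by *Fh1* and *Mrpl20*. The nearest to *Lypd8* were *Txn1*, *Sfxn1* and *Phgr1*, to *Pigr* *Idh3b*, *Vcl* and *Rps27l*, to *Ccl25* *Atp5g3*, *Atp5o* and *Uqcrh*, and to *Plac8* *Marc2*, *Aldoa* and *Tkfc*. *Nlrp6* was closest to *Tpi1*, *Atp5j* and *Atp1b1*, and *Il18* to *Slc52a2* (0.97), *Pgpep1* and *Tep1*. Among the members, *Lypd8* and *Pigr* had an r of 0.91 and *Ccl25* and *Plac8* of 0.87.

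The study compared the stem cell lineage of normal and precancerous intestine, and over all cells the 10 genes were at close levels in ROBO and WT. *Dmbt1* was at 21.5 in WT and 21.2 in ROBO, and the gasdermin C sum at 1.28 and 1.31. The log2 ratio of ROBO over WT was -0.02 (-0.07 to 0.04) for *Dmbt1* and 0.03 (-0.19 to 0.25) for the sum. None of the 10 genes (0) reached 1.5-fold in either direction, a fold that 5.15% of the 9071 genes with at least 50 UMIs reached, 2.38% higher and 2.77% lower in ROBO. The median log2 ratio was 0.03 over the 10 genes and 0.00 over all tested genes.

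Among the more abundant members, *Plac8* had a WT level of 29.5 and a ROBO level of 33.1, with a log2 ratio of 0.17 (0.12 to 0.21). *Pigr* was at 14.6 and 13.2, with a ratio of -0.15 (-0.22 to -0.08). *Lypd8* was at 21.6 and 22.7, with a ratio of 0.07 (0.01 to 0.12). With 1 pooled sample each, these differences cannot be told apart from differences between mice or libraries. *Ccl25* (6.65 and 6.62) and *Nlrp6* (2.24 in both) had log2 ratios of -0.01 and 0.00. *Il18* was at 0.425 and 0.498, with an interval from -0.15 to 0.61, and for *Gsdmc2*, *Gsdmc3* and *Gsdmc4* the intervals also included 0. For *Gsdmc3*, with 36 and 40 UMIs, the interval from -0.39 to 0.99 did not exclude a 1.5-fold difference, and nor did that of *Il18*.

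**Figure D5:**
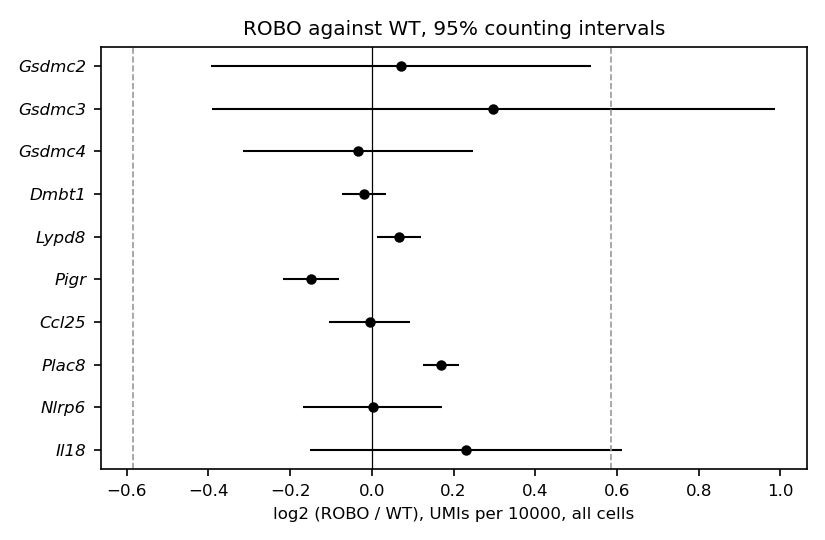
Log2 ratio of ROBO over WT in UMIs per 10000 over all cells for each of the 10 genes (points), with conditional exact 95% intervals for counting error as bars and 1.5-fold marked by dashed lines. All points lie between the dashed lines, and *Plac8* and *Pigr* lie farthest from 0 among the genes with narrow intervals.

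Within absorptive clusters the largest genotype ratio of a member with at least 50 UMIs was that of *Dmbt1* in the shallow Zfp692-led cluster. WT stood at 20.1 (18.1 to 22.2) and ROBO at 5.45 (4.39 to 6.70). Their log2 ratio was -1.88 (-2.23 to -1.54), from 381 and 90 UMIs. It was the only one of 6 members with at least 50 UMIs in that cluster to pass 1.5-fold, beside 13% of 1335 genes, and it ranked 2 from the lowest ratio of all 1335. The UMIs were spread over 74 of 184 WT cells and 29 of 164 ROBO cells, and 30 WT and 4 ROBO cells had at least 5. After thinning, 36.9% (26.6% to 48.1%) of 84 WT cells and 21.6% (12.9% to 32.7%) of 74 ROBO cells had a *Dmbt1* UMI, and these intervals overlapped. Median depth was 853 and 854 UMIs. With shallower cells (under 500 genes) left out before clustering, the ratio was -0.71 (-1.01 to -0.42), in a matched cluster whose cells overlapped these with a Jaccard index (shared cells over all cells of either) of 0.272. At matched positions of the ranking the cluster's *Dmbt1* level was higher in WT in 5 of bins 1 to 6, for example 12.5 against 1.04 in bin 2 and 30.2 against 2.83 in bin 4, and lower in bin 3, at 6.17 against 7.498.

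The same direction held for *Dmbt1* in the Clu-led cluster, at 7.14 in WT and 4.64 in ROBO (-0.62, -0.99 to -0.26), where *Nlrp6* went the other way at 2.05 and 3.12 (0.61, 0.06 to 1.17). These 2 of 6 members passed the fold there, beside 9.7% of 1815 genes. In the Rn45s-led cluster *Dmbt1* was at 18.1 and 13.9, and in the unnamed Fosb-led cluster at 21.5 and 15.6. The dividing cluster was opposite, at 38.7 and 47.0 (0.28, 0.20 to 0.36), and so were bins 2 and 3 of the ranking over all cells, at 14.7 and 22.0 and at 21.3 and 28.9. Bin 4 went back to the first direction, at 37.3 and 31.3. In bin 1 both genotypes were at 16.9. *Dmbt1* was thus lower in ROBO in 4 clusters named here and higher in the dividing cluster, in the Sis-led cluster (5.83 and 8.62) and in the Reg1-led cluster (57.0 and 62.8, 0.14, 0.03 to 0.25), with an even level over all cells.

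In the dividing cluster 0 of 8 members with at least 50 UMIs passed the fold, beside 14% of 5158 genes, and in the Reg1-led cluster 0 of 7, beside 16.5% of 1983 genes. Nor did any member pass in the Rn45s-led, Cubn-led, Gpx3-led, Fosb-led, Zg16-led or Sis-led clusters, where 12%, 8.46%, 10.9%, 15.2%, 18.3% and 16.6% of genes did. The remaining cases were *Nlrp6* in the Myl7-led cluster (1.26 and 2.06, -0.07 to 1.51 on the log2 scale, beside 9.43% of 1389 genes), *Plac8* in the enteroendocrine-like cluster (9.49 and 23.0 in 16 WT and 14 ROBO cells, beside 24.7% of 89 genes), and *Dmbt1* and *Lypd8* in the immune-like cluster, beside 23.9% of 209 genes. In the last of these, a single WT cell gave 37 of the 47 *Dmbt1* UMIs, and a single WT cell 36 of the 49 *Lypd8* UMIs.

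Most genes from lists of the same pathways were within 1.5-fold between genotypes, as were most of all genes. Over all cells 5.15% of the 9071 genes with at least 50 UMIs passed that fold. In lists this short, a count of 0 beside that share is not read as a result about the list. Of 25 listed inflammasome and IL-18 genes, 13 had at least 50 UMIs and 0 passed 1.5-fold, with a median log2 ratio of 0.08 against 0.00 over all genes. The most abundant, the adaptor *Pycard*, was at 11.6 in WT and 11.2 in ROBO and was highest in the Reg1-led cluster at 21.7. *Casp1*, which matures IL-18, was at 1.27 and 1.43. Along the ranking *Pycard* went from 8.87 in bin 1 to 17.9 in bin 7 and 4.68 in bin 10. Of 10 type 2 cytokine receptor and signalling genes, 5 had at least 50 UMIs and 0 passed (median log2 ratio -0.09), among them *Stat6* (0.891 and 0.836), *Jak1* (0.828 and 0.877) and *Il13ra1* (0.589 and 0.535).

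Of 14 IgA and homing genes, 4 had at least 50 UMIs and 0 passed, beside 5.15% of all genes (median log2 ratio -0.17). *Fcgrt*, the neonatal Fc receptor that takes up IgG from milk, was at 14.6 in WT and 19.2 in ROBO and was highest in the Gpx3-led cluster at 134, against 2.57 in the Reg1-led cluster, where *Pigr* was highest. *Ccl28* was at 0.447 and 0.342 and *Aldh1a1* at 0.776 and 0.803. *Ccr9*, the receptor for CCL25, had 25 UMIs, too few for the fold count, and was picked after its values were seen. It was read in 5 of 25 WT and 2 of 20 ROBO immune-like cells.

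Among 27 other antimicrobial and barrier genes, 14 had at least 50 UMIs. Of these, 2 were at least 1.5-fold higher in ROBO and 2 lower (median log2 ratio -0.05). Beside this list and those that follow, 2.38% of all genes were higher and 2.77% lower by that fold. *Zg16*, a goblet cell lectin, went from 3.59 in WT to 18.2 in ROBO, which is 2.34 (2.24 to 2.44) on the log2 scale. *Reg3a*, an antimicrobial lectin, was at 0.283 and 0.428. *Reg4* was at 1.30 and 0.787 and the Paneth cell product *Ang4* at 0.455 and 0.181. The secretory-like cluster, where *Zg16* and *Ang4* were highest, held 66 WT and 65 ROBO cells. The most abundant of the list, *Muc13*, *S100g* and *Tff3*, did not pass. Of 16 suckling and weaning genes, 13 had at least 50 UMIs (median log2 ratio 0.12), and *Ctsl* (1.14 and 2.04) and *Nox4* (0.101 and 0.194) were higher in ROBO, while the most abundant, *Lct*, *Mgam* and *Sis*, did not pass. The Gpx3-led cluster, where *Ctsl* (19.3) and *Nox4* (0.904) were highest, held 104 WT and 128 ROBO cells, and the part of this balance in their ratios was not tested. Of 18 absorptive transcription factors, all 18 had at least 50 UMIs (median log2 ratio -0.02), and *Cdx2* (0.705 and 0.432) was lower in ROBO, while *Elf3*, *Hnf4a* and *Cdx1* did not pass.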

How the data were processed

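Crypt-enriched small-intestinal cells of WT and ROBO-Crainbow mice were captured on a Bio-Rad ddSEQ isolator, dead cells were removed with Viahance, and SureCell WTA 3′ libraries were sequenced on a NextSeq 500. The authors built the gene matrices in BaseSpace and deposited 2 tables of raw UMI counts per gene and cell, 1 per genotype. The submitters' processing notes name mm10 and GRCm38; the aligner, gene annotation and cell calling are not given in the sources used here. The matrices held 1348 WT cells (533 to 11908 UMIs per cell, median 1492) and 1249 ROBO cells (463 to 13756, median 1610), all kept, and no mitochondrial rows. Cell names carry no sample number, so the 8 samples per genotype were analysed as 1 pooled sample each, with no test between genotypes.

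The members and gene lists were chosen with earlier results of these data known. Seurat 5.3.0 (R 4.3.3) normalized the 13201 genes seen in at least 3 cells, regressed S and G2M scores (42 and 54 genes), and clustered cells at resolution 0.8 on 20 principal components of 1992 variable genes, the 10 members left out. A class name needed at least 3 markers that were raised 1.5-fold (0.1 per 10000 added), detected in at least 10% of cells, and 1 of them among the 10 leading genes; this rule was set after the clusters were seen. Scrublet (scanpy 1.11.5, 5% expected rate) called 2 WT and 4 ROBO doublets, under 0.5% of cells of each, so doublets were in effect not removed; the called cells were kept. The crypt-villus score was log2 of villus-list over crypt-list UMIs, 1 added to each. Levels have exact Poisson intervals, shares exact Clopper-Pearson intervals and ratios conditional exact intervals, all at 95% (scipy 1.17.1). For shares of cells, cells were thinned to 912 UMIs (the lower quartile) and shallower cells left out. Background shares use genes with at least 50 UMIs. The named genes were the 10 members, genes of each list past 1.5-fold, its 3 most abundant genes, cluster leading genes and the 3 genes most like each member. Of the listed symbols, 9 had no row. Counts with Poisson counting error alone were simulated for 9071 genes, of which 200 were changed. In them 95.7% of intervals for the comparison of all cells held the true ratio. The simulation left out variation between cells, mice and libraries, so it cannot show how the intervals cover these. Alternatives changed the clustering, scaling, cell filters, bins, thinning and fold. Promoters came from RefSeq (GRCm38.p6), and gene positions and coding sequences from GENCODE M21.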

Additional observations from a re-analysis of the deposited data

How the results depend on the processing

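Of 240 values recomputed under alternative settings, 193 stayed within their tolerance (the counting interval, 1.5 times for counts of genes, 10 percentage points for positions in the ranking) and 47 did not. No value (0) whose interval excluded 0 changed sign. The all-cell genotype ratios of *Gsdmc2*, *Gsdmc4*, *Dmbt1*, *Nlrp6*, *Ccl25* and the gasdermin C sum, whose intervals included 0, each changed sign under at least 1 alternative, so no direction is read from them. The gasdermin C sum in the Reg1-led cluster over all other cells, 2.31 on the log2 scale, was 1.58 at a clustering resolution of 0.5 and 2.66 when cells were weighted equally. Between 6 and 9 members were highest in that cluster, 9 of them at resolution 0.5, and 5 to 7 peaked in the villus-ward bins 6 to 10, against 6 in the main ranking and 6 among deeper cells only, an alternative chosen after seeing the data. No member (0) passed the fold over all cells in 7 alternatives, a lower fold included, while the share of all genes past it was 22.5% at that lower fold and 19.6% with at least 1 UMI in each genotype, against 5.15%. The lower *Dmbt1* of ROBO in the Zfp692-led cluster varied with the cells kept and the clustering: its log2 ratio of -1.88 ranged from -0.71, when cells under 500 genes were left out and the rest clustered again, to -2.07. Over all cells *Dmbt1* was between -0.21 with cells weighted equally and 0.07 with clusters at the mean share of both genotypes. No paired analysis was possible because the cells carry no sample number. With 1 pooled sample per genotype, the spread between mice is unknown, and 662 gasdermin C UMIs limit every split of those genes.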
